A study of Homo sapiens with 4 samples.

Results

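The megabase bins richest in REH peaks were the 250 autosomal bins of 1000000 bp (1 Mb) in which H3K27ac peaks of REH cells made up the highest share of the peaks of both cell lines, out of 1635 bins with at least 20 peaks in all. Each peak was assigned to a bin of hg19 by its midpoint, and the share was the number of REH peaks as a percent of the REH and 697 peaks of the bin. These 250 bins, called member bins here, were chosen by the numbers of peaks themselves, so their shares describe the choice and were not tested. REH cells come from a B-cell precursor acute lymphoblastic leukemia (BCP-ALL) and are positive for the gene fusion ETV6/RUNX1, while 697 cells are a BCP-ALL line negative for this fusion. Both were grown untreated, and chromatin was immunoprecipitated with an antibody against H3K27ac in 1 library per cell line, with input DNA of the same line as its control. Each fusion state is represented by 1 cell line, so the fusion and any other difference between these lines cannot be told apart. There were no replicate libraries, and no value below has a replicate check.

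H3K27ac is the acetylation of a lysine in the tail of histone H3. It is laid down by the acetyltransferases CBP and p300 at active promoters and active enhancers, and it is removed by histone deacetylases. Genes that define a cell type often lie in stretches of the genome with many marked enhancers, and lymphoid leukemias of different subtypes differ widely in which enhancers are marked.

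The lists held 43547 autosomal REH peaks and 73460 autosomal 697 peaks, so that REH peaks made up 37.2% of all autosomal peaks (exact 95% binomial interval 36.9 to 37.5, which like all intervals here covers counting error only). The peaks were called from 65241657 filtered ChIP tags in REH and 68911420 in 697. The labelled cell type was not checked against marker genes, because no hg19 annotation was used here. For the same reason no gene was placed in a bin, and bins are given by chromosome, hg19 position and chromosome arm.

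The share of REH peaks ranged from 0% to 100% over the 1635 tested bins, with a median of 36.6%. In the member bins it ranged from 49.3% to 100%, with a median of 55.4%. The last member bin, on chromosome 11 from 3000001 to 4000000, had 36 REH and 37 697 peaks. The first bin outside, on chromosome 6 from 156000001 to 157000000, had 34 REH and 35 697 peaks, a share of 49.3% as well. REH peaks outnumbered 697 peaks in 220 of the member bins, and in 13.5% of all tested bins. Of the other member bins, 27 had equal numbers and 3 had 1 REH peak fewer than 697 peaks. At least 2 times as many REH as 697 peaks were found in 33 of the 1635 tested bins, all of them member bins by the rule. The quartiles of the share were 52.4% and 60.9%, so most member bins lay close to equal numbers, and 10 of them held 5 or fewer 697 peaks. In 26 member bins the exact 95% binomial interval of the share lay above 50%, without allowance for having chosen the highest shares. No other tested bin could reach this, since its share was at most 49.3%.

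In numbers of peaks, the member bins differed from the other tested bins more in 697 than in REH. A share of at least 49.3% by itself asks for few 697 peaks where the number of REH peaks is usual. The following counts thus describe the choice. Over all 1635 tested bins the medians were 20 REH and 35 697 peaks. A member bin held a median of 20 REH peaks (quartiles 15 and 27), against 21 in the 1385 other tested bins (quartiles 13 and 32). For 697 the median was 15 peaks in the member bins (quartiles 10 and 20) and 40 in the other bins (quartiles 27 and 62). In 241 of the 250 member bins the number of 697 peaks was below the median of the other bins. For REH peaks the same was true of 131 member bins, while 107 lay above that median. The member bins held 13.0% of the autosomal REH peaks and 5.84% of the autosomal 697 peaks.

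**Figure D1:**
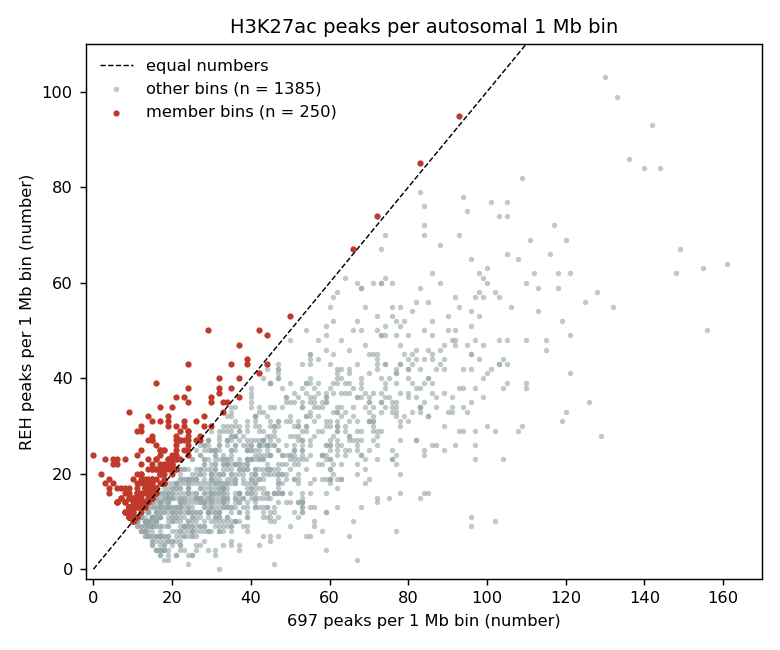
Number of REH peaks (vertical axis) against number of 697 peaks (horizontal axis) in each of the 1635 tested 1 Mb bins, with the 250 member bins in red, the 1385 other bins in grey and equal numbers as a dashed line. The member bins lie along and above the dashed line, mostly at the left, with a median of 15 697 peaks against 40 in the other bins.

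The member bins were also poor in peaks as a whole. They held a median of 34 peaks of both lists (20 to 188), against 62 (20 to 235) in the other tested bins. Of the 474 tested bins with under 40 peaks, 153 were member bins, which is 32.3%. Of the 314 bins with 100 or more peaks, 5 were, which is 1.59%, and over all tested bins the percent was 15.3%. The share of a bin with few peaks has a wide counting interval, and how far the number of peaks sets membership was not tested. The member bins with the most peaks were on chromosome 16 from 89000001 to 90000000, with 95 REH and 93 697 peaks, and on chromosome 19 from 1000001 to 2000000, with 85 and 83. Their shares of 50.5% and 50.6% were near equal numbers.

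By bases, peaks covered 3.36% of the member bins in REH and 2.31% in 697, a ratio of 1.45. In the other tested bins the percents were 3.8% and 6.48%, a ratio of 0.587. By bases too, REH differed less between the kinds of bin than 697 did. The bases under REH peaks exceeded those under 697 peaks in 220 member bins, against 22.2% of all tested bins. At least 2 times the bases lay under REH peaks in 56 member bins, against 3.61% of all tested bins. These counts come from the same contrast as the rule and describe the bins it chose. Among the 249 member bins with a 697 peak, the median ratio of bases was 1.42, and it ranged from 0.587 to 43.6.

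In 30 member bins, more bases lay under 697 than under REH peaks. The ratio was lowest on chromosome 10 from 45000001 to 46000000, where 40 REH peaks covered 58179 bp and 37 697 peaks covered 99067 bp. On chromosome 12 from 123000001 to 124000000, 74 REH peaks covered 120286 bp and 72 697 peaks covered 165627 bp. In both bins REH had more peaks but fewer bases per peak, so the number and the extent of the peaks gave opposite orders.

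Inside the member bins, 2591 of 5662 REH peaks (45.8%, exact 95% interval 44.5 to 47.1) shared at least 1 bp with a 697 peak, against 70.9% (70.4 to 71.3) in the other tested bins. Of the 697 peaks, 2629 of 4289 overlapped a REH peak in the member bins, which is 61.3% (59.8 to 62.8), against 36.8% (36.5 to 37.2) elsewhere. Overlapping peaks came almost in pairs everywhere, with a REH share of 49.6% in the member bins and 49.8% in the other bins. With such pairing, a choice of bins by REH share by itself gives a lower percent for REH and a higher one for 697, so these percents describe the choice. Peaks without a partner numbered 3071 in REH and 1660 in 697 in the member bins, and 9771 and 41133 in the other bins.

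**Figure D2:**
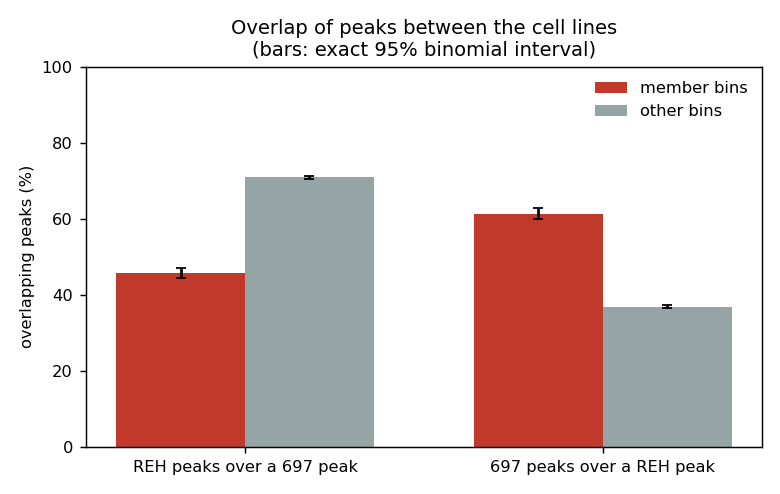
Percent of REH peaks that overlap a 697 peak and of 697 peaks that overlap a REH peak by at least 1 bp, in member bins (red) and other tested bins (grey), with exact 95% binomial intervals. The percent was lower in the member bins for REH peaks (45.8% against 70.9%) and higher for 697 peaks (61.3% against 36.8%), which the choice of bins by REH share by itself gives when overlapping peaks come in pairs.

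Taken over all peaks of a cell line, the median length and height in the member bins were close to those elsewhere. REH peaks had a median length of 1010 bp in the member bins and 1090 bp in the other bins, and 697 peaks had 903 and 870 bp. REH peaks without a 697 partner had a median of 713 bp in the member bins and 643 bp in the other bins. Those with a partner had 1520 and 1370 bp. For 697 peaks these medians were 578 and 669 bp without a REH partner, and 1260 and 1570 bp with one. With and without a partner, REH peaks were thus longer and 697 peaks shorter in the member bins. The median pileup, the mean number of overlapping ChIP fragments, was 21.9 for REH peaks in both kinds of bin, and 14.3 for 697 peaks in the member bins against 14.1 elsewhere. The median fold enrichment over the local background was 1.59 for REH peaks in both kinds of bin, and 1.43 and 1.41 for 697 peaks. Pileup values were not compared between the cell lines.

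The REH share was higher among peaks of 1000 bp or more than among shorter peaks, both in the member bins and in the other bins. In the member bins it was 54.8% (exact 95% interval 53.4 to 56.2) among peaks under 1000 bp and 59.1% (57.7 to 60.5) among peaks of 1000 bp or more. In the other bins it was 30% (29.6 to 30.4) and 38.4% (38.0 to 38.9). Among peaks of at least 5000 bp the member bins had 188 REH and 101 697 peaks, a share of 65.1% (59.2 to 70.5). In the other bins the share among such peaks was 36.5% (34.9 to 38.2), below the 38.4% of peaks of 1000 bp or more. In the same 250 bins, peaks with a q-value of at most 5% numbered 4909 in REH and 2861 in 697, a share of 63.2%, where this filter gave 44.5% over all autosomes. With peaks joined within 1000 bp, the share was 57.0%. These are subsets of the peaks that chose the bins, and their shares are a description.

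The bin with the highest share, on chromosome 2 from 229000001 to 230000000, was the only member bin without a 697 peak. Its 24 REH peaks covered 27845 bp (share 100%, exact 95% interval 85.8 to 100), and the longest was 5462 bp.

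On chromosome 14 from 86000001 to 87000000, 20 REH peaks covered 39339 bp and 2 697 peaks covered 3235 bp (share 90.9%, interval 70.8 to 98.9). Of these REH peaks 16 were at least 1000 bp long, against 1 of the 697 peaks. Both 697 peaks overlapped a REH peak, so this bin held no 697 peak without a partner.

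On chromosome 4 from 9000001 to 10000000, in the short arm, 23 REH peaks covered 44556 bp, and 3 697 peaks covered 1021 bp. Their ratio of 43.6 was the highest of the member bins with a 697 peak. The longest REH peak, from 9740449 to 9751301, was 10853 bp, while no 697 peak of the bin was longer than 415 bp. It began inside a run of 592735 bp without a 697 peak, from 9155513 to 9748247, which held 12 REH peaks, and it overlapped the 697 peak that ends this run.

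The bin on chromosome 7 from 82000001 to 83000000 had 18 REH and 3 697 peaks. It held the longest REH peak of all member bins, of 36872 bp from 82552534 to 82589405, and close to it another of 16144 bp from 82523957 to 82540100. No 697 peak overlapped either. REH peaks covered 69002 bp of the bin and 697 peaks 3276 bp.

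The bin on chromosome 1 from 194000001 to 195000000 showed the same kind of pattern over more bases. Its 23 REH peaks covered 86632 bp, and its 5 697 peaks covered 10547 bp. Of the 10 longest REH peaks without a 697 partner in the member bins, 4 lay in this bin, from 194696806 to 194707233, from 194578223 to 194586134, from 194715869 to 194723462 and from 194485681 to 194493250. The first of them was 10428 bp long, and the others were 7570 to 7912 bp. The longest REH peak of the bin, of 14374 bp, overlapped a 697 peak and is not among them.

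The other 5 of the 10 bins with the highest shares lay on chromosome 3 from 190000001 with 19 REH and 4 697 peaks, on chromosome 10 from 33000001 with 22 and 5, on chromosome 6 from 116000001 with 17 and 4, on chromosome 2 from 183000001 with 16 and 4, and on chromosome 1 from 72000001 with 23 and 6. The longest REH peak in each of these 5 bins was between 1714 and 5780 bp. Among peaks with a q-value of at most 5%, REH had 13 to 22 peaks in each of the 10 bins with the highest shares, and 697 had 0 to 5. These are most of the peaks by which the bins were chosen.

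Joined where they touched, the 250 member bins formed 202 stretches. Of these 171 were single bins, 22 were pairs and 9 were stretches of 3 or more bins, and 79 member bins (31.6%) touched another member bin. The 250 bins with the lowest share formed 203 stretches and had 85 bins (34.0%) that touched another, so that adjacency was about as frequent at both ends of the ranking. Over all 1224 pairs of adjacent tested bins, the share of a bin and that of its neighbour had a Spearman correlation of 0.243 and a Pearson correlation of 0.277, a description over bins that share libraries. Among the 1385 tested bins that were not member bins, and whose shares the choice had thus limited to 49.3% at most, those beside a member bin had a median share of 35.8% (n = 193) and the rest 34.5% (n = 1192). Most member bins touched no other member bin.

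The longest stretch was the first 7 Mb of chromosome 4, with 205 REH peaks over 307396 bp and 164 697 peaks over 198023 bp. Its bins had shares from 52.1% to 64.3%. The longest REH peak, of 6916 bp from 6149997 to 6156912, overlapped 2 697 peaks.

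On the same arm a second stretch of 4 bins ran from 8000001 to 12000000, with 85 REH and 36 697 peaks, a share of 70.2%. REH peaks covered 120368 bp and 697 peaks 32375 bp, a ratio of 3.72. Of the REH peaks 60 had no 697 partner, and of the 697 peaks 9 had no REH partner. A pair of bins from 15000001 to 17000000 had 63 REH and 30 697 peaks and a ratio of bases of 2.23. The ratio of covered bases was thus higher in these stretches than in the 7 bins at the end of the arm.

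The second longest stretch, of 6 bins, lay in the long arm of chromosome 6 from 107000001 to 113000000. It had 171 REH peaks over 209789 bp and 111 697 peaks over 151851 bp, with bin shares from 50% to 70.7%. Its longest REH peak, of 8504 bp from 111923230 to 111931733, lay over a 697 peak of 7717 bp from 111924287 to 111932003. The longest domain of this stretch was therefore marked in both lines, while 91 REH peaks had no partner against 30 697 peaks. A stretch of 3 bins on the same arm, from 88000001 to 91000000, had 71 REH and 33 697 peaks and a ratio of bases of 2.39.

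Stretches of 3 bins were also found in 6p from 4000001 to 7000000, with 137 REH and 112 697 peaks, in 16p from 23000001 to 26000000, with 88 and 58, and in 13q from 112000001 to 115000000, with 81 and 73. Others lay in 12p from 7000001 to 10000000, with 78 and 66, and in 10p from 32000001 to 35000000, with 57 and 34. The pair of bins in 6p from 27000001 to 29000000 was 1 of 22 pairs and was taken as the tenth stretch because it had the most REH peaks of the pairs. It had 73 REH peaks over 193889 bp and 67 697 peaks over 144085 bp. Its longest REH peak, from 27773376 to 27795341, was 21966 bp and overlapped 2 697 peaks. The bases under REH peaks exceeded those under 697 peaks in each of these 10 stretches, by ratios of 1.23 to 3.72.

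**Figure D3:**
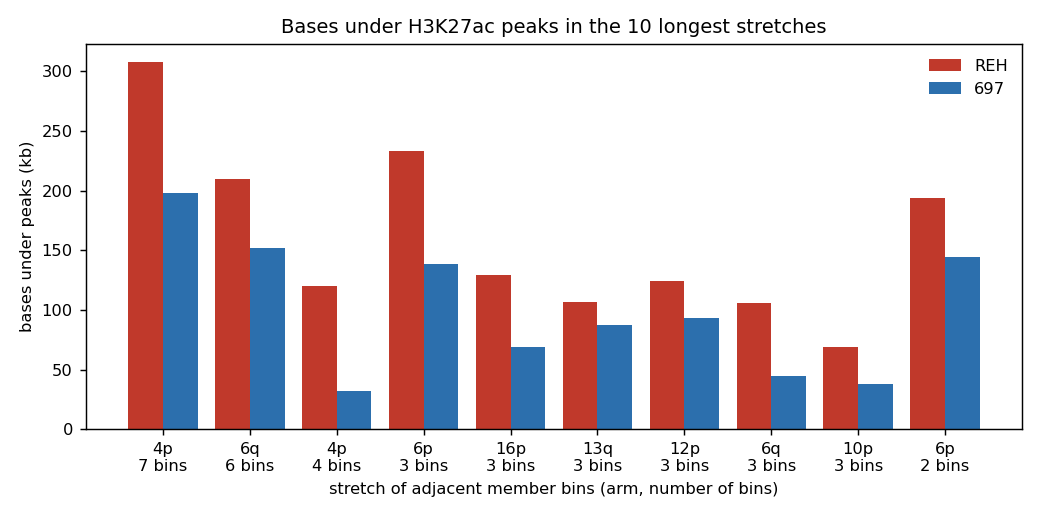
Bases under H3K27ac peaks, in kb, in REH (red) and 697 (blue) for the 10 longest stretches of adjacent member bins (ties by number of REH peaks), ordered by number of bins and labelled with the chromosome arm. REH exceeded 697 in each stretch, by a ratio of 1.55 in the 7 bins at the left and of 3.72 in the second stretch of 4p.

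By chromosome arm, the member bins were spread over 38 of 39 arms and were most frequent in 4p. There, 15 of 28 tested bins were member bins, which is 53.6% (exact 95% interval 33.9 to 72.5), against 15.3% over all arms. In 6q it was 20 of 45 bins (44.4%, 29.6 to 60.0), the largest number of any arm. Next came 12p with 7 of 21 bins (33.3%, 14.6 to 57.0) and 4q with 16 of 51 (31.4%, 19.1 to 45.9). These intervals treat adjacent bins as independent, which they are not, and make no allowance for having picked the highest of 39 arms. Together 4p and 6q held 14.0% of the member bins and 4.46% of the tested bins.

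At the other end, 20q had no member bin among 26, for which the interval reaches 13.2%. Few were found in 17q, with 2 of 50, in 3p, with 3 of 54, and in 1q, with 5 of 75. The density of peaks differed as well, with 57.5 697 peaks per tested bin in 20q and 63.1 in 17q, against 24 in 4p and 26 in 6q. REH had 29.5 peaks per tested bin in 20q, 35.2 in 17q, 21 in 4p and 21.4 in 6q. The part of peak density in the differences between arms was not tested.

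**Figure D4:**
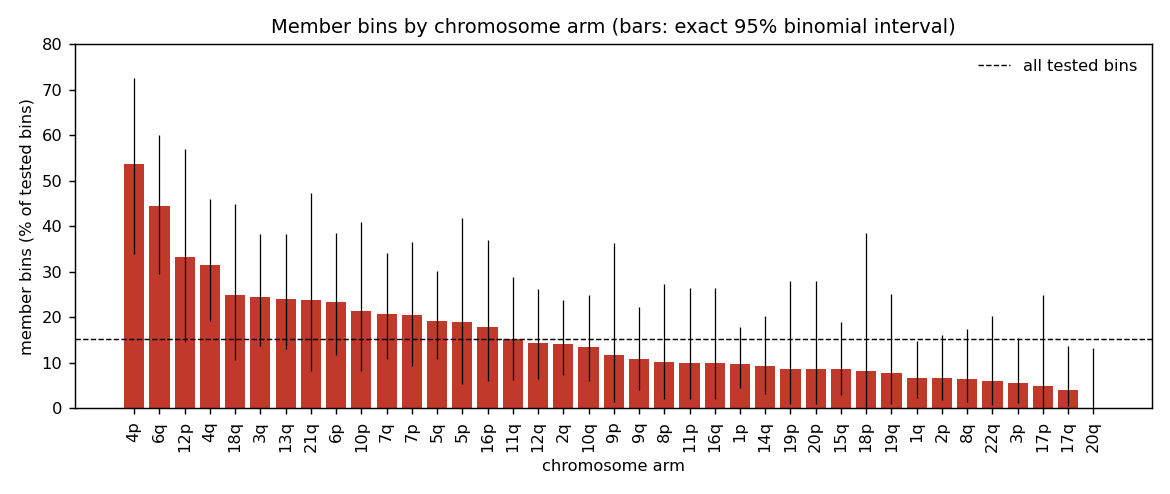
Member bins as a percent of the tested bins of each chromosome arm, in descending order, with exact 95% binomial intervals and the percent over all tested bins (15.3%) as a dashed line. The arms 4p (53.6%) and 6q (44.4%) stand at the left and 20q (0%) at the right.

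Within 4p the member bins were gathered in the outer part. In the first 24 Mb of chromosome 4, limits set after the values were seen, 15 of 16 tested bins were member bins, and from there to 50 Mb 0 of 12 were. The outer part had 394 REH and 276 697 peaks in its tested bins, a share of 58.8%, and the inner part had 193 and 396, a share of 32.8%. Both lists changed between these parts, since a tested bin held a median of 24 REH and 15 697 peaks in the outer part and 14.5 and 32 in the inner part. The exception in the outer part, from 7000001 to 8000000, had 4 REH and 16 697 peaks. Over all bins of each part, peaks of at least 1000 bp numbered 227 in REH and 120 in 697 in the outer part, and 106 and 168 in the inner part. Among these longer peaks too, the order of the lines was opposite in the 2 parts. They come from the lists that chose the bins, so their numbers are a description.

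In 6q the member bins were frequent between 88 and 120 Mb, the middle part, again limits set after the values were seen. Of 13 tested bins there, 11 were member bins, and they held 319 REH and 211 697 peaks with the 2 others included. From 61 to 88 Mb, 3 of 4 tested bins were member bins, with 54 REH and 45 697 peaks over all 4. From 120 Mb to the end of the arm, the outer part, 6 of 28 tested bins were member bins, with 592 REH and 914 697 peaks over all 28. The first tested bins beyond 120 Mb, from 126000001, 130000001 and 131000001, were among these member bins, so the member bins did not stop at that limit. Between these 2 parts the REH list was nearly level, with a median of 22 peaks per tested bin in the middle part and 20.5 in the outer part. The 697 list was not, with 15 and 32. By bases the ratio of REH to 697 was 1.5 in the middle part and 0.762 in the outer part. Over all bins of each part and among peaks with a q-value of at most 5%, the middle part had 378 REH and 213 697 peaks, and the outer part 605 and 709. These peaks also come from the lists that chose the bins and are a description.

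**Figure D5:**
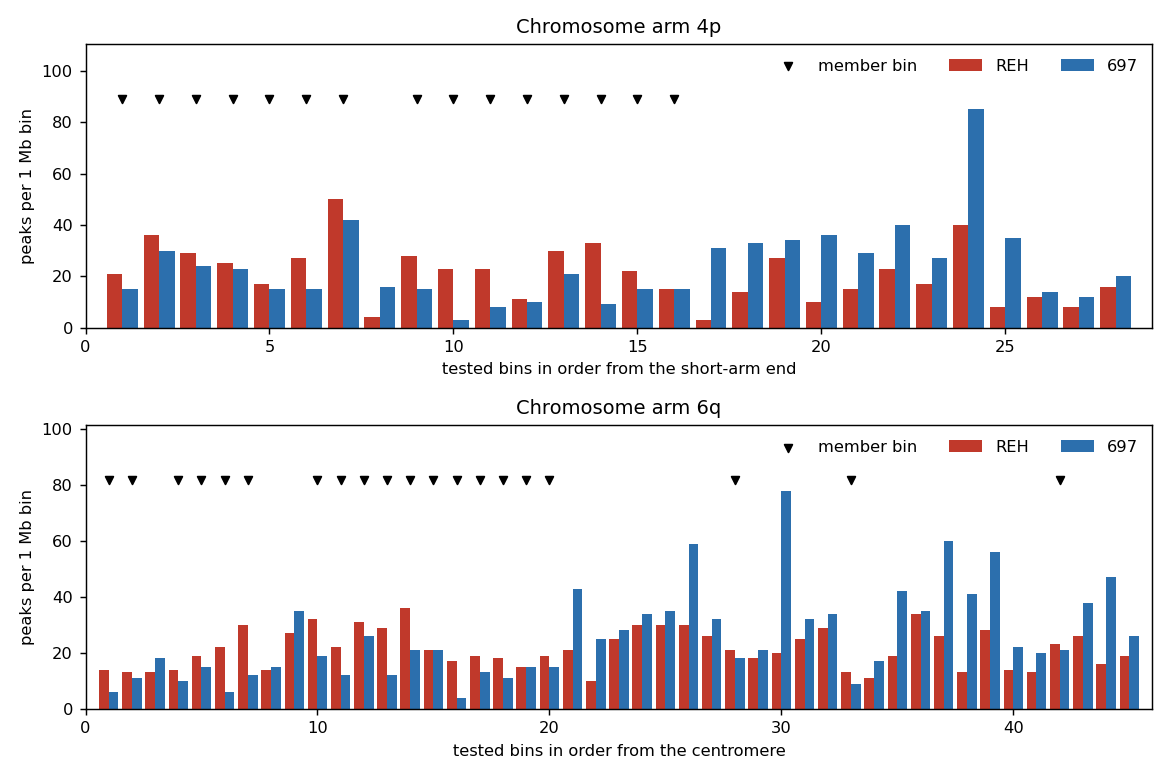
Number of REH (red) and 697 (blue) peaks in each tested 1 Mb bin of 4p (top, in order from the end of the short arm) and 6q (bottom, in order from the centromere), with member bins marked by triangles. In 4p, 15 of the first 16 tested bins are marked and none of the next 12, and in 6q 11 of the 13 tested bins between 88 and 120 Mb are marked.

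In 12p, where ETV6 lies, the 7 member bins were scattered between bins in which 697 had more peaks. They lay between 4 and 32 Mb, with shares from 50% to 59.3%. The 3 adjacent ones, from 7000001 to 10000000, had 78 REH and 66 697 peaks, while the bin before them had 47 and 95. Over all tested bins of 12p, REH had 467 and 697 had 791 peaks, a share of 37.1%, close to that of all autosomes.

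Of 5 lncRNA loci whose hg19 windows could be read from the study's track plots, 1 lay in a member bin, and 4 of the 5 lay in bins with at least 20 peaks. Of all tested bins, 15.3% were member bins. The study's other lncRNA loci were not analysed here. The locus in a member bin was lnc-ASTN1-1, in the bin on chromosome 1 from 177000001 to 178000000. Here 13 REH peaks covered 23458 bp and 9 697 peaks covered 18443 bp, a share of 59.1% and place 80 among the 250. The bin of lnc-LRP8-3, on chromosome 1 from 53000001 to 54000000, had 42 and 44 peaks and missed the choice narrowly, at place 256. The share was 40% in the bin of lnc-NKX2-3-1 and 42% in that of lnc-RTN4R-1, both above the median of 36.6% over all tested bins. The bin of lnc-TIMM21-5, on chromosome 18 from 70000001 to 71000000, had 8 REH and 2 697 peaks and did not reach the minimum of 20.

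Membership depended on where the bins were cut. With all bins shifted by 500000 bp, 167 of the 250 member bins overlapped at least 1 of the 250 shifted bins with the highest share, and 35 had both parts in such bins. The exact list is therefore not firm. Values over all member bins also moved, with a pooled share of 56.9% here and from 48.8% to 68.2% under the alternatives given at the end.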

How the data were processed

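H3K27ac ChIP-seq peak lists of REH and 697 cells, 1 library each, were analysed. According to the methods and labels, the authors mapped reads to hg19 with Bowtie (Bowtie2 in the labels). Per the file headers, they called peaks with MACS 2.1.0.20150731 in broad mode against the input of the same cell line, with a q-value cutoff of 0.05, and of 0.1 for joining into broad regions. The deposited columns hold positions and lengths in bp, the mean pileup signal, the fold enrichment as a ratio, and p-values and q-values as −log10. Tags per peak are not among these columns. The methods name an earlier MACS release than the headers.

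Peaks were assigned to bins by midpoint, and covered bases were clipped to the bins. Arms were split at the middle of the widest stretch without a peak of either list. On chromosomes 4 and 12 that stretch did not hold the centromere, and the empty stretch near 50 and 36 Mb was used instead for the arm values given. Chromosomes whose widest empty stretch began at their first base were treated as having only a long arm. Chromosomes X and Y were left out. Intervals are exact binomial. The regions named were the 10 longest stretches, the 10 bins with the highest share, the bins at the limit, the longest REH peaks, and 5 lncRNA loci placed by the axes of the study's track figures. The limits within 4p and 6q and the other bins named were chosen after their values were seen. The members and lists were chosen with earlier results of these data known. No test was possible with 1 library per cell line. Gene lists were not used, since positions were on hg19, the annotation used GRCh38, and coordinates were not converted. The scripts were tested on simulated data. Tables were made with pandas 2.3.3 and numpy 2.4.6 in Python 3.11.15, intervals with scipy 1.17.1 and plots with matplotlib 3.10.9.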

Additional observations from a re-analysis of the deposited data

Results flagged for a closer look

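Chromosome X lies outside the autosomal rule, and its peaks were looked at because they enter no comparison above. It held 1075 REH and 1001 697 peaks, a share of 51.8% (exact 95% binomial interval 49.6 to 54.0), against 37.2% on the autosomes. Of its 39 bins with at least 20 peaks, 28 (71.8%) had a share at or above that of the last member bin.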

How the results depend on the processing

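Of 57 values under alternatives, 31 stayed within the limits set for a like value, 25 moved and 1 turned. The limits for counts were wide, since 178 and 190 member bins kept out of 250 also passed as like values. Ranking by bases could not change the number of bins with more REH peaks, which is among the 31. The number of stretches lay between 197 and 210 under all 8 alternatives. Each of them again took 250 bins, so this says little about how firm the bins are.

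Under bins shifted by 500000 bp, a pooled share of 58.1% and a ratio of bases of 1.54 were found, and 105 member bins were kept by their midpoint. That midpoint was the last base of a shifted bin, so the 105 counted only the left part of each member bin. With an FDR of at most 5% the share, the ratio and the member bins kept were 63.5%, 1.86 and 138, with more REH peaks in 400 bins. With peaks of at least 1000 bp they were 53.9%, 1.21 and 82, the longest stretch had 4 bins and the leading arm 12 member bins. With a minimum of 10 peaks they were 67.6%, 2.21 and 103, with more REH peaks in 413 bins. With a minimum of 40 the pooled share fell below even numbers, to 48.8%, with a ratio of 1.06, 97 member bins kept, a longest stretch of 4 bins and more REH peaks in 87 bins. Ranking by bases gave 54.4% and 1.59. With as many of the longest 697 peaks as REH peaks, the share was 68.2%, the ratio 1.61, and REH had more peaks in 662 bins. Joining peaks within 1000 bp kept 230 member bins and moved none of these values. The arm with the most member bins was 6q, tied with 2q under the FDR limit, and not among peaks of at least 1000 bp, where 19p, 2q and 7q were tied. The lists give no tags per peak, so the depth behind a single bin is unknown.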
